A study of Mus musculus with 6 samples.

Results

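The comparison described here is the 4 h response to imatinib of ETV6-PDGFRB Ba/F3 cells, measured on 2 of the 6 expression arrays of the series. The arrays were chosen by their labels: the ETV6-PDGFRB line, selected for growth without interleukin 3 (IL3), left untreated or given 100 nM Glivec for 4 h. Glivec is a trade name of imatinib. All 6 arrays carried RNA of Ba/F3, a mouse line labelled as pro-B cells, grown in medium with 10% serum. The other 4 arrays formed the same pair, untreated and imatinib, for FIP1L1-PDGFRA cells selected without IL3 and for cells with the empty pMSCV vector that were kept in IL3. The vector cells differ from the fusion cells in having no fusion gene and also in receiving IL3. The labels do not say how many clones or cultures stand behind each line.

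ETV6-PDGFRB joins the oligomerization domain of the transcription factor ETV6 to the kinase domain of the platelet-derived growth factor receptor beta. The protein dimerizes without ligand, stays active, and drives myeloid neoplasms with eosinophilia that respond to imatinib, which blocks the ATP pocket of PDGF receptor, ABL and KIT kinases. Parental Ba/F3 cells live on IL3, whose receptor signals through JAK2 to STAT5, RAS-ERK and PI3K-AKT, and an active tyrosine kinase can replace it. STAT proteins switch on feedback inhibitors and interferon-type genes, ERK drives immediate early genes and MYC, MYC drives ribosome production, and AKT keeps FOXO factors out of the nucleus.

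Each value is a MAS5 signal, a linear fluorescence intensity of 1 probe set on 1 array, which the authors scaled to a common array level. Signals below 20.1, the median over the arrays of the 50th percentile, were set to that floor, and a gene with at least 1 of its 2 signals above the floor is called measured. Ratios are imatinib over untreated, and a log2 ratio of 1 is a 2-fold higher signal. Where 1 of the 2 signals lay below the floor the fold is a bound, written as at least that size. Every line and treatment had a single array, so the ratios have no replicate check and none is tested. The only repeat-like measure was the IL3 pair, whose log2 ratios had an SD of 0.19 over 6674 genes, and it holds any effect of the drug in those cells too.

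Past 2-fold, lower signals with imatinib outnumbered higher ones in ETV6-PDGFRB cells, although 3668 of all 6852 measured genes had ratios above 0 and 3184 below. The 6852 included 306 past 2-fold (4.47%), with 196 on the lower side (2.86%) and 110 on the higher (1.61%). The lower side reached further: 35 genes were at least 4-fold lower and 2, Iigp1 and Igtp, at least 16-fold lower, while Ccng2 was the 1 gene at least 4-fold higher. The lower genes were also brighter to begin with, with a median signal of 159 before and 54.4 after, whereas the higher genes reached a median of only 103 with imatinib. Among genes whose brighter signal lay between 300 and 1000, 3.93% were 2-fold lower and 0.925% 2-fold higher. In the IL3 pair no gene with a signal above 300 on either array passed 2-fold in either direction, and 9 of all 6674 did (0.135%), 5 of them higher (0.0749%) and 4 lower (0.0599%).

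**Figure D1:**
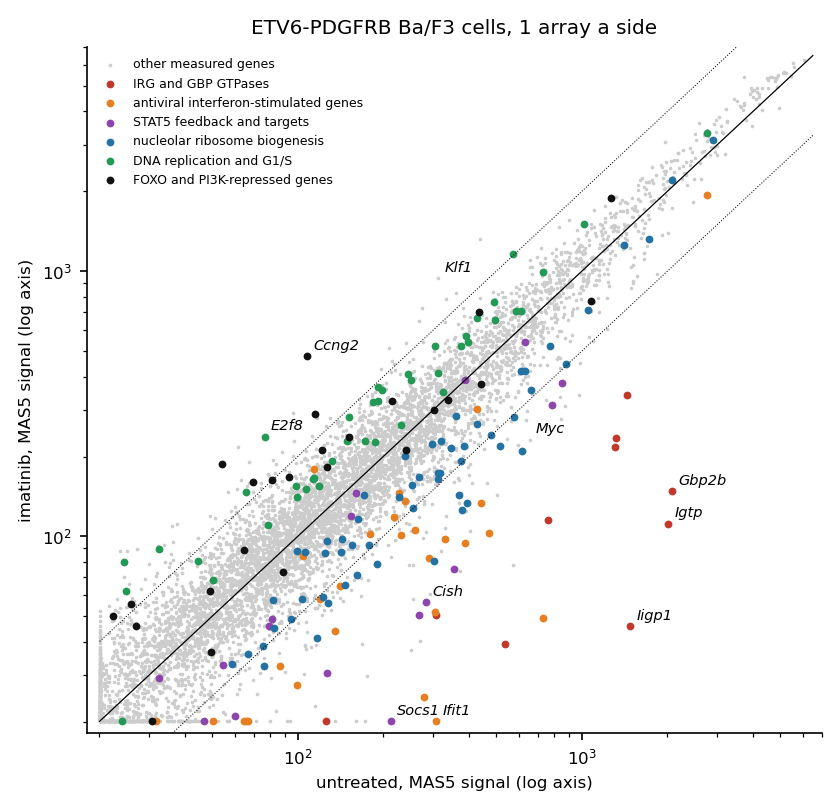
MAS5 signals of the 6852 measured genes in ETV6-PDGFRB cells, untreated on the horizontal and imatinib on the vertical axis, both log axes that start at the floor; the solid line is equality, the dotted lines are 2-fold, and colours mark 6 gene lists. The red IRG and GBP points all lie below the lower 2-fold line, and Ccng2 lies farthest above the upper one.

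The split depends on how the arrays are scaled. With the arrays set to equal signals of the hybridization controls (bacterial transcripts added before hybridization), 50 genes were 2-fold higher and 311 lower, so that higher genes made up 13.9% of those past 2-fold in place of 35.9%. That scaling moved the median log2 ratio of all genes from 0.03 to -0.15, and list medians close to 0 change sign with it. The genes nearest to the 2-fold limit were Pdlim5 (lower, from 1090 to 544) and Haus4 (higher, from 164 to 329) just inside, and Bag5 (from 98.1 to 49.1) and Msrb2 (from below the floor to 40.1) just outside it.

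The genes below are ordered by role, from the interferon-type and STAT-linked genes through ERK, MYC and ribosome production to the cell cycle and FOXO genes. The plot of gene lists gives the values of every measured member. Counts in each list are to be read beside the shares of all measured genes, 2.86% 2-fold lower and 1.61% 2-fold higher. Apart from those named by a fixed rule, genes were picked from the lists after their values were seen, to show what each list holds.

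**Figure D2:**
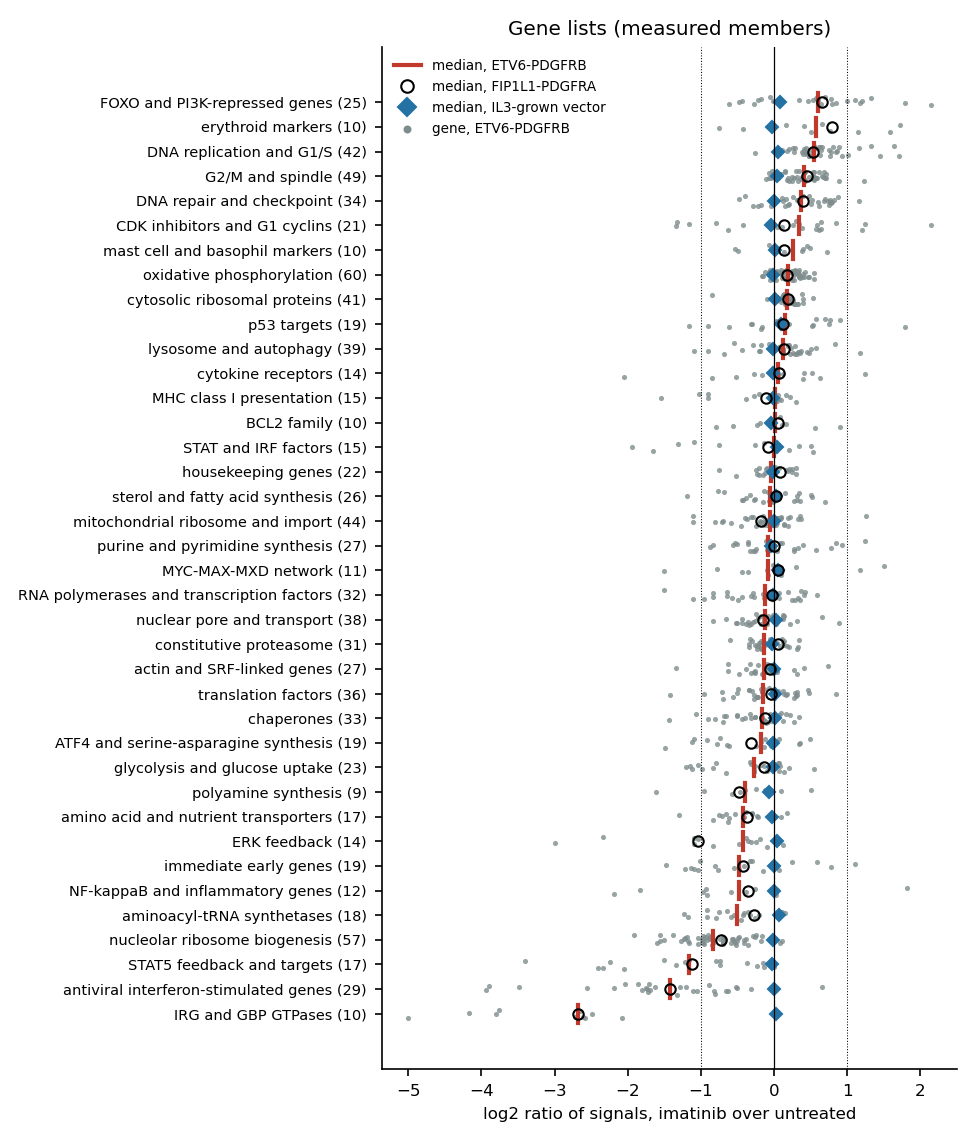
Log2 ratios of imatinib over untreated signals for each gene list with at least 9 measured members (number in parentheses): grey points are genes in ETV6-PDGFRB cells, red bars their median, open circles and blue diamonds the medians in FIP1L1-PDGFRA and IL3-grown vector cells, and dotted lines 2-fold. The medians run from -2.69 for the IRG and GBP GTPases to 0.60 for the FOXO and PI3K-repressed genes in ETV6-PDGFRB cells.

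The lowest ratios of the response belonged to the interferon-inducible GTPases, which attack the vacuoles of intracellular parasites. All 10 measured IRG and GBP genes were at least 2-fold lower, with a median log2 ratio of -2.69, while 2.86% of all measured genes were 2-fold lower. Iigp1, an effector GTPase of the IRG family, had signals of 1476 untreated and 45.9 with imatinib, 617 and 36.7 in FIP1L1-PDGFRA cells, and 11.3 and 12.8, below the floor, in vector cells. Its second probe set read 789 and 16.5. Igtp, another IRG gene, went from 2015 to 112 in ETV6-PDGFRB cells, an 18.0-fold lower signal. It was 861 and 135 in FIP1L1-PDGFRA cells and 47.8 and 36.4 in vector cells. Gbp2b, a guanylate-binding protein, went from 2078 to 148 (a log2 ratio of -3.81), Irgm2 from 534 to 39.3 (13.6-fold lower) and Irgm1 from 760 to 115 (6.60-fold). Igtp, Irgm1 and Irgm2 are regulators that guard the cell's own membranes from the effector GTPases. The remaining members were 4.24-fold lower (Gbp7, from 1447 to 341) to at least 6.26-fold lower (Gbp6, from 126 to below the floor). The signals after imatinib were above those of both vector arrays for all 10 genes, for example 235 against 5.14 and 4.65 for Gbp2, although Gbp6 was below the floor on all 3 arrays. Several IRG and GBP genes have close paralogs, so a probe set may read more than 1 of them.

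Many of these genes carry sites for STAT and interferon regulatory factors near their start, and the promoter windows of Igtp and Ifit1 are shown because each holds such letters. Windows are RefSeq sequence of GRCm38.p6, from 250 bases before to 50 after the annotated start, 5′ to 3′ on the gene's strand. Igtp lies at chr11:58199306-58199605 on the plus strand and Ifit1 at chr19:34640639-34640938 on the plus strand. Capitals mark the GAS letters TTCNNNGAA and the ISRE letters, GAAA and again GAAA with any 2 bases between, on either strand.
Igtp: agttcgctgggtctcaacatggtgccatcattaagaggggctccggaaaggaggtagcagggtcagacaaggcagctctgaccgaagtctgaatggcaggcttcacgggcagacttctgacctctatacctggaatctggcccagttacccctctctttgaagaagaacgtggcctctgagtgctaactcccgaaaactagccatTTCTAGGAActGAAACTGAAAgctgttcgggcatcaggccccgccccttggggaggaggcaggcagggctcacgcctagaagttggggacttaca
Ifit1: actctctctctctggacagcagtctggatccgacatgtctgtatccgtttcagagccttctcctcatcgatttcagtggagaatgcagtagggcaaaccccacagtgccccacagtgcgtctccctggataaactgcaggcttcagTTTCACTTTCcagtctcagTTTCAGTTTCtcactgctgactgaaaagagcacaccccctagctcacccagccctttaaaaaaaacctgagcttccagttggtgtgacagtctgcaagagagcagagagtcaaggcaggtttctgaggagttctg
In Igtp the GAS letters begin 45 bases and the ISRE letters 34 bases before the start, and the matches do not overlap. Ifit1 holds a pair of ISRE matches on the opposite strand, 104 and 85 bases before the start. The GAS letters occurred in 9.55% and the ISRE letters in 3.99% of the 27025 windows of the table. ISRE letters were in 7 and GAS letters in 3 of the 8 IRG and GBP genes with a window.

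The antiviral interferon-stimulated genes were lower with less uniformity. Of 29 measured genes, 20 were at least 2-fold lower and 0 higher, with a median log2 ratio of -1.42. Ifit1, which binds viral RNA, was 307 untreated and 11.4, below the floor, with imatinib, at least 15.3-fold lower. Rtp4 went from 732 to 49.3 (14.9-fold lower). Usp18, a protease that removes the ubiquitin-like protein ISG15 and restrains the type I interferon receptor, went from 277 to 24.7 (11.2-fold). All 3 genes were below the floor on both vector arrays. Among the 2′-5′-oligoadenylate synthetase family, which activates RNase L, Oasl2 went from 471 to 103, Oas3 from 99.5 to 27.5 and Oas2 from 136 to 44.1, whereas Oas1a was 429 and 302. The ratios of this family thus ran from 4.57-fold to 1.42-fold lower. Zbp1, a sensor of unusual nucleic acids, went from 389 to 94.4 and the chain-terminating antiviral enzyme Rsad2 from 50.3 to less than the floor, at least 2.51-fold lower. Samhd1, which degrades deoxynucleotides, was 3.49-fold lower on its brightest probe set, but another set went 2.25-fold the other way. Ifit2 (104 and 84.2) and the membrane protein gene Ifitm3 (2767 and 1929) stayed within 1.5-fold, and Ifi27l2a was the 1 member with a higher signal, 114 untreated and 180 with imatinib.

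The transcription factors of this response split in the same way. Irf1, an interferon-induced activator, went from 403 to 105 (3.84-fold lower), and Irf7 from 247 to 78.3 (3.15-fold). Stat2 and Irf9, which form the ISGF3 complex that binds ISRE sites, went from 108 to 43.5 and from 149 to 70.2. A second Stat2 probe set was 1.59-fold lower. Stat3 was 1.68-fold lower, and Jak1, Jak2, Irf3 and Stat6 differed by at most 1.09-fold. Stat5a (124 and 175) and Stat5b (105 and 152), the STATs that IL3 receptors use, had higher signals with imatinib, by 1.42-fold and 1.45-fold. Of the 15 measured STAT, JAK and IRF genes, 4 were 2-fold lower and 0 higher.

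Antigen presentation genes, which interferon also induces, mostly kept their signals. Of 15 measured MHC class I pathway genes, 2 were 2-fold lower: Tapbpl, a peptide editor, from 111 to 38.2, and tapasin (Tapbp), which loads peptide onto class I molecules, from 1230 to 604. The interferon-induced proteasome subunit Psmb10 was 1059 and 566. Its partners Psmb8 (1394 and 1209) and Psmb9 (1312 and 1477) stood close to their untreated signals, as did H2-D1, a heavy chain gene, at 1946 and 2048. The class I light chain B2m was 2748 and 3391. The median log2 ratio of the list was 0.01, and it became -0.17 when scaled to the hybridization controls and -0.06 after quantile normalization. Untreated ETV6-PDGFRB signals exceeded both vector arrays for all 15 genes, for example Psmb9 at 1312 against 306 and 318, so this set combined high untreated signals with little difference at 4 h.

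Feedback inhibitors and targets of STAT5 were lower as a group. Of 17 measured members, 9 were at least 2-fold lower and 0 higher, and all 17 log2 ratios were below 0. Socs1, which blocks JAK kinases, had signals of 213 and 8.16, below the floor, and its ratio was at least 10.6-fold lower. It read 85.0 and 76.7 in vector cells. Cish, a STAT5-induced inhibitor of cytokine receptors, went from 284 to 56.4 (5.03-fold lower). The survival kinase Pim1 went from 356 to 75.4, and a second Pim1 probe set from 179 to 15.3, below the floor. Pim2, a related kinase, went from 59.9 to 21.1. Il4ra, the IL4 receptor alpha chain, went from 127 to 30.6 (4.16-fold), and Ccnd2, cyclin D2, from 788 to 312 (2.52-fold). For Cish, Pim1, Il4ra and Ccnd2 the untreated signals of ETV6-PDGFRB cells lay near those of the vector cells, which were 309 and 297 for Cish and 858 and 957 for Ccnd2. The imatinib signals were below both. In the antiviral list, by contrast, 21 of 29 imatinib signals were above the floor and above both vector arrays, and in the STAT5 list 3 of 17 were. Socs2 (153 and 119) and Mcl1 (631 and 539), also STAT5 targets, stayed within 1.5-fold, and Socs3 was 32.6 and 29.3. GAS letters were in 2 of 11 windows of the STAT5 list, against 9.55% of all windows and 8.14% of those of measured genes. The window of Cish, at chr9:107296409-107296708 on the plus strand, is shown because it holds GAS letters at the start site and 11 bases after it, in capitals.
Cish: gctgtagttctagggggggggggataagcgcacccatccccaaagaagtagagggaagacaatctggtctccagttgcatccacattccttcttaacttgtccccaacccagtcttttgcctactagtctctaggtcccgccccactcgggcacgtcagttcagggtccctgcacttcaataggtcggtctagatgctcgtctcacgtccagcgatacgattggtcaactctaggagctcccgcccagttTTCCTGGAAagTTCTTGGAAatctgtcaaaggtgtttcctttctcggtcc

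Id1, an inhibitor of basic helix-loop-helix factors, went from 267 to 50.4 (5.30-fold lower), with 418 on both vector arrays. Id2, of the same family, was 62.6 and 72.3, and the median over its probe sets had the opposite sign. Id3 and Id4 were below the floor on both arrays.

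**Figure D3:**
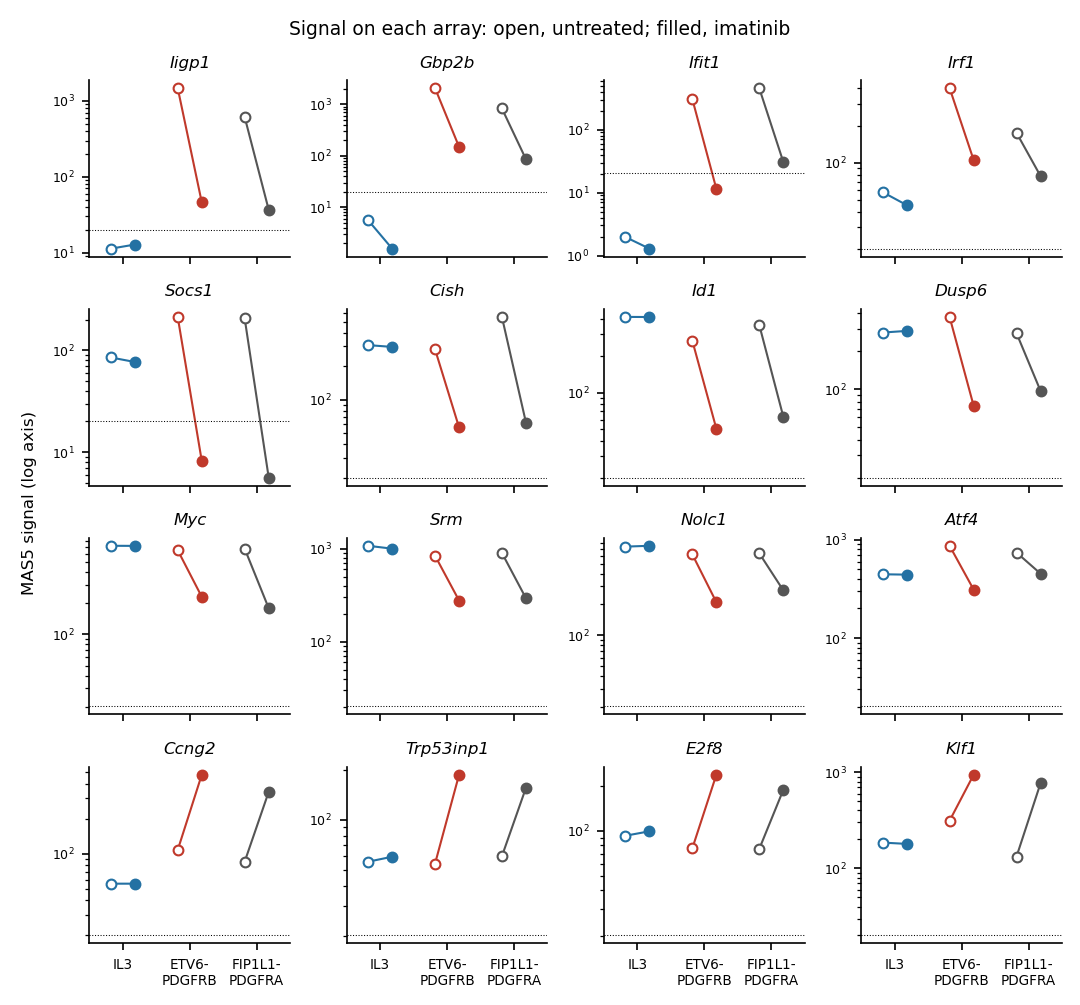
MAS5 signals of 16 genes on the 6 arrays (log axes, a different range in each panel), with open symbols for untreated, filled for imatinib, and a dotted line at the floor of 20.1. In every row but the bottom one the filled ETV6-PDGFRB symbols lie below the open ones, and in the middle rows also below both IL3 symbols. In the bottom row the filled ETV6-PDGFRB symbols lie above the open ones.

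Genes that ERK signalling induces, several of which limit the pathway, included some of the lowest ratios outside the interferon-type genes. Dusp6, the phosphatase that inactivates ERK, went from 373 to 73.9 (5.05-fold lower), against 281 and 289 in vector cells. Lif, an IL6-family cytokine, went from 161 to 19.1, just below the floor. The ERK pathway inhibitors Spred1 (452 and 213) and Spred2 (132 and 61.9) were 2.13-fold lower each, and the RAS GTPase-activating protein Rasa2 was 2.06-fold lower. In all, 5 of 14 measured members were 2-fold lower and 0 higher, with a median log2 ratio of -0.43. Others had low signals throughout: Spry2 was 49.8 and 41.8, Dusp1 56.7 and 61.8, and Spry1, Spry4 and Etv4 were below the floor on both arrays.

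Among 19 measured immediate early genes 6 were 2-fold lower and 1 higher. Srf, the serum response factor, went from 167 to 59.7 (2.79-fold lower), Ier2 from 398 to 182 and Junb from 115 to 53.8. Fos and Fosl1, AP-1 subunits, and Nab2, a repressor of EGR factors, went from signals of 46.7, 40.5 and 41.2 to below the floor. Klf10 ran the other way, from 60.3 to 129 (2.15-fold higher). Klf10 is known as a TGF-beta-induced repressor, and its vector signals were 67.6 and 67.1. Egr1, Egr3, Jun and Nr4a1 were below the floor on both ETV6-PDGFRB arrays.

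Myc was 656 untreated and 232 with imatinib, 2.83-fold lower, and 724 and 722 in vector cells. MYC works as a dimer with MAX, and MXD proteins compete for MAX as repressors. Max went from 301 to 176 (1.71-fold lower), while Mxd4 went from 67.2 to 191 (2.84-fold higher) and Mxd3 from 23.6 to 53.6 (2.27-fold higher). A second Mxd4 probe set was 2.81-fold higher, and the other Mxd3 sets were 1.63-fold and 1.16-fold higher. Mycn, brighter than Myc on its probe set and not comparable with it in level, was 1082 and 1009. The other measured members, Mlx, Mga, Mlxip, Mxi1, Mnt and Zbtb17, stayed within 1.5-fold.

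Genes of ribosome production in the nucleolus had lower signals almost throughout. Of 57 measured genes, 55 had a log2 ratio below 0 and 14 were at least 2-fold lower, with a median of -0.84 and 0 higher. Rrp1b, an rRNA processing factor, went from 303 to 80.6 (3.76-fold lower). Nop58, a core protein of box C/D snoRNPs that methylate rRNA, went from 380 to 126, and its partner Nop56 from 877 to 446. Nolc1, a chaperone of snoRNPs, went from 616 to 209, and 2 further probe sets were 2.51-fold and 2.44-fold lower. Polr1b, the second largest subunit of RNA polymerase I, went from 117 to 41.5, and Polr1a from 58.8 to 33.0. Wdr43, part of the complex that processes the small subunit precursor, went from 394 to 134. The exceptions were abundant: Npm1, the histone chaperone nucleophosmin, was 2883 and 3110, and Nop10, a box H/ACA protein, was 2077 and 2202. In untreated cells 6 of the 57 signals exceeded both vector arrays, and with imatinib 0 did. The median stayed between -0.67 and -1.02 under every alternative setting tried. The window of Wdr43, at chr17:71615965-71616264 on the plus strand, is shown for the E-box letters CACGTG, in capitals, which MYC-MAX dimers bind and which begin 17 bases after the start.
Wdr43: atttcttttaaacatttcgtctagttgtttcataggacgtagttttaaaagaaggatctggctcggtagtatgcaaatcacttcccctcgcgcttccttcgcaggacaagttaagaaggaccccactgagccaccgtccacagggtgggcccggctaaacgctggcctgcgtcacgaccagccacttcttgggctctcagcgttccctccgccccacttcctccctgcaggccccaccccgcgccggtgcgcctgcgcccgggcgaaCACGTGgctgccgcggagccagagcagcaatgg
E-box letters were in 14 of the 50 nucleolar genes with a window, 28.0%, against 8.09% of all windows and 12.8% of those of measured genes.

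The genes of the ribosomal proteins themselves did not share this. Of 41 measured cytosolic ribosomal protein genes, 0 passed 2-fold, and 39 had a log2 ratio above 0, with a median of 0.18. That median was -0.01 when scaled to the hybridization controls and 0.03 after quantile normalization, so its sign depends on the scaling. The nucleolar median was -1.02 and -0.81 under the same settings. Rpsa was 5535 and 6077. Rpl12 was the farthest from the others, at 61.1 and 34.0, on a dim probe set.

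Protein synthesis factors had small ratios with a few exceptions. Among 36 translation factors 1 was 2-fold lower, Eef1e1, from 595 to 221, which encodes a scaffold of the multi-tRNA synthetase complex. That share, 2.78%, was near the 2.86% of all measured genes. Eif1a (277 and 142) and the cap-binding Eif4e (1150 and 701) were 1.94-fold and 1.64-fold lower, and Eef2k, the kinase that slows elongation, was 54.7 and 98.6. Of 18 cytosolic tRNA synthetases, 16 had ratios below 0 and 2 were 2-fold lower, Wars, which interferon gamma induces, from 545 to 232 and Tars from 368 to 162. The median of this list was -0.50, and the IL3 pair's was 0.07. Atf4, the transcription factor of the amino acid response, went from 871 to 311 (2.80-fold lower) on 1 probe set and from 256 to 146 on another. Of 19 measured genes of the ATF4 and serine-asparagine list 3 were 2-fold lower: Atf4 itself, the pseudokinase gene Trib3 (76.1 and 34.9) and Mthfd2, a mitochondrial folate enzyme (183 and 85.8). Asns, asparagine synthetase, was 543 and 348. Among 33 chaperones, Hsph1 went from 283 to 104 (2.72-fold lower) and Pdia4 from 41.9 to below the floor, while Hspa5, the main chaperone of the endoplasmic reticulum, was 1833 and 976 and Hsp90aa1 was 2326 and 2299.

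In most metabolic lists few genes passed 2-fold, and several of the shares lay near the 4.47% of all measured genes. Srm, spermidine synthase, went from 845 to 277 (3.05-fold lower), while Odc1, the enzyme before it in polyamine synthesis, was 718 and 545. Of 23 measured glycolysis and glucose uptake genes 4 were 2-fold lower: the glucose transporter Slc2a3 (636 and 275), hexokinase 2 (Hk2, 247 and 112), Vegfa and Pfkfb3, the last pair from signals of 43.5 and 41.1 to below the floor. Another Vegfa probe set was 1.29-fold lower. Of 17 amino acid and nutrient transporters, 15 had ratios below 0, and Slc20a1, a phosphate carrier, was 2.46-fold lower (154 and 62.7). It was the 1 transporter past 2-fold (5.88%). In sterol and fatty acid synthesis, Idi1 was 2.27-fold lower (745 and 327) and another Idi1 set was 1.70-fold lower. No other of the 26 measured genes passed 2-fold, a share of 3.85%. Dck, deoxycytidine kinase of the nucleotide salvage pathway, was 2.37-fold higher (88.2 and 209), with 1.46-fold and 1.57-fold on its other sets. It was the 1 gene past 2-fold of 27 measured in purine and pyrimidine synthesis (3.70%). Among 60 oxidative phosphorylation genes of the nucleus 0 passed 2-fold, and the median was 0.19, or 0.01 when scaled to the hybridization controls. Of 44 mitochondrial ribosome and import genes, the import chaperones Timm8a1 and Timm10 were 2.16-fold and 2.15-fold lower, and Mrpl33 was 2.39-fold higher. No others passed 2-fold, and the share was 6.82%. The median ratios of the proteasome (-0.13), nuclear pore (-0.13) and housekeeping (-0.05) lists lay near 0, with 0 of 31, 0 of 38 and 0 of 22 genes past 2-fold.

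DNA replication genes had higher signals with imatinib. Of 42 measured genes of the G1/S list, 41 had ratios above 0, 6 were at least 2-fold higher and 0 lower, with a median of 0.54. Of all 6852 measured genes, 3668 had ratios above 0 and 1.61% were 2-fold higher. Ung, which removes uracil from DNA, went from 24.5 to 80.4 (3.27-fold higher), against 75.0 and 65.6 in vector cells. E2f8, a repressor of the E2F family, went from 76.4 to 238 (3.11-fold), and E2f1, its best known activator, from 24.8 to 62.1. In vector cells E2f1 was also higher with imatinib, by 1.57-fold (34.0 and 53.3). A second E2f1 probe set went from below the floor to 26.2, and with the median over its probe sets E2f1 was under 2-fold. Ccne2, a cyclin that starts S phase, went from 32.6 to 89.3 (2.74-fold). The origin licensing factors Cdc6 (65.8 and 147) and Cdt1 (573 and 1162) were 2.23-fold and 2.03-fold higher. The 6 replicative helicase genes ranged from 1.32-fold (Mcm5) to 1.55-fold (Mcm2) higher, and Pcna was 2762 and 3318. For Ung, Ccne2 and Cdc6, the untreated ETV6-PDGFRB signal was below both vector arrays. Over the list, 12 genes exceeded both vector arrays untreated and 37 did with imatinib.

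Later cell cycle genes followed with smaller ratios. Of 49 measured G2/M and spindle genes 43 had ratios above 0, and 1 passed 2-fold: Kif18a, a kinesin that aligns chromosomes, from 34.2 to 80.4. Ect2, needed for cytokinesis, was 1.86-fold higher, Cdca3, a trigger of mitotic entry, 1.63-fold (257 and 419), and Top2a, topoisomerase II, was 1150 and 1100. The list median was 0.40. In DNA repair 28 of 34 ratios were above 0, with a median of 0.37, and Timeless, a protein of the replication fork, was 2.24-fold higher (83.9 and 188). The windows of Cdc6, at chr11:98907901-98908200, and Cdca3, at chr6:124829926-124830225, both on the plus strand, are shown for the E2F letters TTTNNCGC and the cell cycle homology letters TTTGAA (CHR), in capitals. The E2F match in Cdc6 is on the opposite strand and begins 138 bases before the start, and the CHR match in Cdca3 begins 30 bases after it.
Cdc6: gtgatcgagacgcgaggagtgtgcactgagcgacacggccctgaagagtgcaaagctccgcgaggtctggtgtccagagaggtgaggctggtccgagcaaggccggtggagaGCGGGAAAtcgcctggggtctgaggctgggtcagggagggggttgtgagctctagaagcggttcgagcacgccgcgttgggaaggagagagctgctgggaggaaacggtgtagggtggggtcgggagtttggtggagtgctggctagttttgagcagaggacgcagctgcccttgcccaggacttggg
Cdca3: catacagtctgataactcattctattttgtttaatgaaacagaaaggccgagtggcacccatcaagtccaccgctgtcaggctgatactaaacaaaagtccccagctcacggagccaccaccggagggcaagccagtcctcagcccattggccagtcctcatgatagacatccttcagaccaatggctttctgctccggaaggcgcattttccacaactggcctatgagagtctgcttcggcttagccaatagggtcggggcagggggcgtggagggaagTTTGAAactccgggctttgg
E2F letters were in 16 of 36 windows of the G1/S list, against 5.93% of all windows and 11.1% of those of measured genes. CHR letters were in 28 of 41 windows of the G2/M list, against 20.2% and 14.2%. These shares describe lists chosen by role and not the response. Of all 2-fold higher genes with a window, 12.1% held E2F letters and 12.1% CHR letters.

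The genes that PI3K-AKT signalling keeps low through FOXO factors gave the highest single ratio. Ccng2, an unusual cyclin of cells leaving the cycle, went from 108 to 477 (4.42-fold higher), and a second probe set from 59.6 to 213. It was 85.4 and 339 in FIP1L1-PDGFRA cells and 55.5 and 55.6 in vector cells. Trp53inp1, a stress protein with roles in autophagy, went from 54.2 to 187 (3.45-fold). Hbp1, a transcriptional repressor of cell cycle genes, went from 115 to 289 (2.52-fold). Cdkn1b, the CDK inhibitor p27, went from 69.3 to 160 (2.31-fold), the autophagy kinase Ulk1 from 22.3 to 50.1 and the stress gene Gadd45a from 25.9 to 55.6. These 6 were the genes past 2-fold among 25 measured members, 0 were 2-fold lower, and the median was 0.60. Of the 25 ratios, 17 were above 0 and 8 below, the lowest at -0.61 on the log2 scale. Cited2, a bright member, was among those below 0, at 1075 untreated and 770 with imatinib. Foxo3 itself was 152 and 238, Txnip 434 and 702, and Ypel3 lay at the limit with 81.3 and 162. Foxo1, Sesn3, Irs2, Insr and Klf2 were below the floor on both arrays. The window of Hbp1, at chr12:31950196-31950495 on the minus strand, is shown for the forkhead letters GTAAACA, in capitals, 149 bases before the start.
Hbp1: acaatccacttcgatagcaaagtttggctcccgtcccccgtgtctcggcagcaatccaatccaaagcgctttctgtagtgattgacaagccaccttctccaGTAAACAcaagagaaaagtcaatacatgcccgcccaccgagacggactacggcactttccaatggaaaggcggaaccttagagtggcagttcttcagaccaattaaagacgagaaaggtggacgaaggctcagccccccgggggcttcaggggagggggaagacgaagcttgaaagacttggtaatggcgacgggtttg
These letters were in 6 of 24 windows of the list and in 4.05% of all windows and 3.18% of those of measured genes. Of all 2-fold higher genes with a window, 6.59% held them.

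Inhibitors and cyclins of G1 did not share a direction. Of 21 measured genes, 3 were 2-fold higher (Ccng2, Cdkn1b and the antiproliferative Tob1, from 96.8 to 228) and 3 lower (Ccnd2, Cdk6 and Cdkn1a). Cdkn1a, the CDK inhibitor p21, went from 851 to 380, and Cdk6 from 54.5 to 21.7. The retinoblastoma family members Rb1 and Rbl2 were 1.54-fold and 1.80-fold higher. Among 19 measured p53 targets, Trp53inp1 was 2-fold higher and Cdkn1a 2-fold lower. In the BCL2 family, 0 of 10 measured genes passed 2-fold. The nearest to it were Bbc3, the BH3-only killer PUMA (1.87-fold higher, at 99.4 with imatinib), and Bcl2l1, the survival protein BCL-XL (79.1 and 45.8, 1.73-fold lower). Bcl2l11, the BH3-only protein BIM, was 338 and 325, and its untreated signal was above the 156 and 165 of the vector cells.

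Inflammatory genes gave single large ratios in both directions. The interferon-induced chemokines Cxcl10 and Cxcl11 went from 91.6 and 71.4 to below the floor, at least 4.56-fold and 3.56-fold lower. Tnfaip2, a TNF-induced gene of membrane nanotubes, went from 61.7 to 218 (3.53-fold higher), against 59.0 and 84.5 in vector cells. Another of its probe sets was 2.10-fold higher in ETV6-PDGFRB cells. Icam1 was 114 and 58.6, Il6 358 and 190, and Nfkbia, the NF-kappaB inhibitor, 671 and 685. Of the 32 matched genes of that list, 20 were below the floor on both arrays, so it rests on 12. Among cytokine receptors Ifngr1, the interferon gamma receptor, was 2.37-fold higher (81.7 and 193), and Il4ra was the 1 gene 2-fold lower of 14 measured.

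The markers of cell type were checked on the same arrays. Of 18 matched pro-B markers, 4 were above the floor: Ptprc (CD45, 624 and 728), Btk (357 and 272), Cd79b (67.5 and 121) and Cd79a (42.6 and 45.8). Pax5, Ebf1, Rag1, Rag2, Vpreb1, Igll1 and Dntt, which define B-lineage precursors, were below it on both ETV6-PDGFRB arrays. Some genes of mast cells and erythroid cells were bright, although 9 of 19 matched mast cell markers, Kit and Fcer1a among them, and 7 of 17 erythroid markers were below the floor on both arrays. Gzmb was 3793 and 3721, the mast cell chymase Cma1 2574 and 3615, and the mast cell carboxypeptidase Cpa3 814 and 1060. Cma1 was 216 and 211 in vector cells and 113 and 313 in FIP1L1-PDGFRA cells. None of the 10 measured mast cell genes passed 2-fold with imatinib. Of 10 measured erythroid genes, 3 were 2-fold higher. The red cell factor Hemgn was 27.2 and 89.7 (3.29-fold higher), against 34.3 and 49.2 in vector cells. The others were Klf1, which switches on globin genes (313 and 943, 3.02-fold), and the membrane skeleton gene Ank1 (18.1, below the floor, and 44.3). Gata1 (407 and 641) and Nfe2 (488 and 832) were 1.58-fold and 1.70-fold higher. The other direction was seen for 2 of the 10, the transferrin receptor Tfrc (1512 and 898, 1.68-fold lower) and Rhag (132 and 98.5). Hba-a1, Alas2 and Slc4a1, products of mature red cells, were below the floor on both arrays. Of the 14 matched T and NK markers, 3 were measured. Zap70, a kinase of the T cell receptor, went from 25.1 to 87.8, while the adaptor Lat (128 and 102) and Cd3g (21.9 and 20.5, just above the floor) had ratios below 0. In FIP1L1-PDGFRA cells Zap70 ran the other way, from 48.7 to below the floor, and in vector cells it was 60.6 and 52.1. Acta2, the 1 measured fibroblast marker, was 462 and 298, against 41.3 and 36.5 in vector cells. In bulk RNA a different number of cells of a type and a different RNA amount per cell cannot be told apart, and the part of these markers in the other results was not tested.

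The drug's targets gave no signal that could report the fusion. Pdgfrb, Pdgfra and Kit were below the floor on both ETV6-PDGFRB arrays, and the labels do not say whether the fusion transcript contains the bases these probes read. Abl1 was 75.6 and 93.8. Etv6 was 46.9 and 23.8, 1.97-fold lower, and dim on all 6 arrays, from 23.8 to 58.5.

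Most genes past 2-fold stood in none of the 44 lists: 84 of the 110 higher and 103 of the 196 lower. On the lower side, Batf2, an interferon-induced bZIP factor, was 172 untreated and under the floor with imatinib, at least 8.58-fold lower. Trgv4, a T cell receptor gamma variable segment, went from 573 to 78.3 (7.32-fold), against 488 and 503 in vector cells. The chloride transporter gene Clcn5 went from 251 to 37.4 (6.71-fold), F2rl2 from 270 to 40.2 and Metrnl, for a secreted protein, from 175 to 29.9. Another Clcn5 probe set was only 1.78-fold lower (82.8 and 46.4). Pdlim5 and Ppa1, a pyrophosphatase (981 and 449), were the brightest of the lower genes outside the lists. On the higher side were Narf (23.8 and 87.9, 3.70-fold, and 2.10-fold on another set), Mettl7a1 (96.1 and 292), Plxdc1 (36.1 and 110), the collagen gene Col5a1 (438 and 1324) and Ampd3, an AMP deaminase (37.7 and 111). Col5a1 was the brightest of the higher genes, and its other probe sets were 1.63-fold and 2.38-fold higher.

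Further genes outside the lists were picked after their values were seen, for what they encode. The immune checkpoint ligands PD-L1 (Cd274, from 93.7 to below the floor) and PD-L2 (Pdcd1lg2, from 90.3 to 30.8) were both lower, by at least 4.67-fold and by 2.93-fold. Pik3cd, the PI3K subunit of blood cells, went from 291 to 60.8 (4.78-fold lower). Its other probe sets were 2.39-fold and at least 2.26-fold lower. The TNF receptor family genes Tnfrsf12a (115 and 22.8) and Tnfrsf9 (168 and 39.2) were 5.05-fold and 4.28-fold lower. Nampt and Gch1, rate-limiting for NAD salvage and tetrahydrobiopterin synthesis, were 2.59-fold and 2.35-fold lower. Another Gch1 set was 1.51-fold lower, and a dim Nampt set went from 22.5 to below the floor. The chemokine receptor gene Cxcr4 was 2.30-fold higher (360 and 826), and Siglecf, a lectin of eosinophils, 2.59-fold higher (56.6 and 146). The mitochondrially encoded ND5 was 332 and 786, 2.37-fold higher, and 422 and 387 in vector cells.

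Promoter letters were counted over all genes past 2-fold that had a window, 155 of the 196 lower and 91 of the 110 higher genes. ISRE letters stood in 25 of the lower genes (16.1%) and 4 of the higher (4.40%), against 3.99% of all measured genes. GAS letters stood in 14.8% of lower, 5.49% of higher and 8.14% of measured genes. For E-box letters the shares were 17.4%, 12.1% and 12.8%, and for forkhead letters 3.87%, 6.59% and 3.18%. The amino acid response letters TGATGNAA (CARE) were in 6.45%, 2.20% and 2.41%. The E2F letters were in 7.10% of lower and 12.1% of higher genes, against 11.1% of measured genes, and the CHR letters in 12.3%, 12.1% and 14.2%. The difference between groups was not tested, and a match is a run of letters, not a bound site. The shares given for single gene lists describe those lists, which were chosen by role, and not the response. Both strands were searched, and ISRE and GAS matches may overlap in a window.

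**Figure D4:**
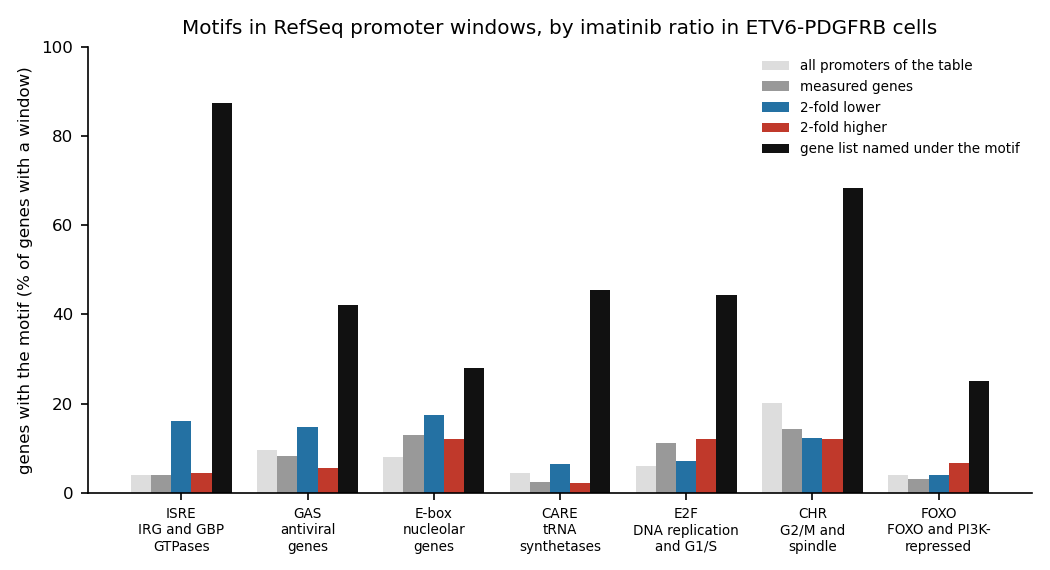
Share of genes whose 300-base promoter window holds each motif, as a percentage of genes with a window: all windows of the table, measured genes, 2-fold lower, 2-fold higher, and the gene list named under the motif. ISRE letters stand in 16.1% of the lower genes against 3.99% of measured genes, and in 7 of 8 IRG and GBP genes.

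The FIP1L1-PDGFRA pair shares no array with the ETV6-PDGFRB pair and serves as a second fusion line. There, 348 of 6743 genes passed 2-fold (5.16%), 148 of them higher (2.19%) and 200 lower (2.97%). Of the 110 genes higher in ETV6-PDGFRB cells, 50 were also 2-fold higher there, 45.5% of this list and 33.8% of the other. Of the 196 lower genes 126 were shared, 64.3% and 63.0%. Among the higher genes measured in the second line, 9 of 109 had a ratio of the opposite sign, and among the lower genes 6 of 193. Zap70 was the 1 gene past 2-fold in opposite directions, at least 2.42-fold lower in FIP1L1-PDGFRA cells. In vector cells 0 of the 104 higher and 0 of the 167 lower genes measured there passed 2-fold. The largest of their log2 ratios was 0.68 in size.

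**Figure D5:**
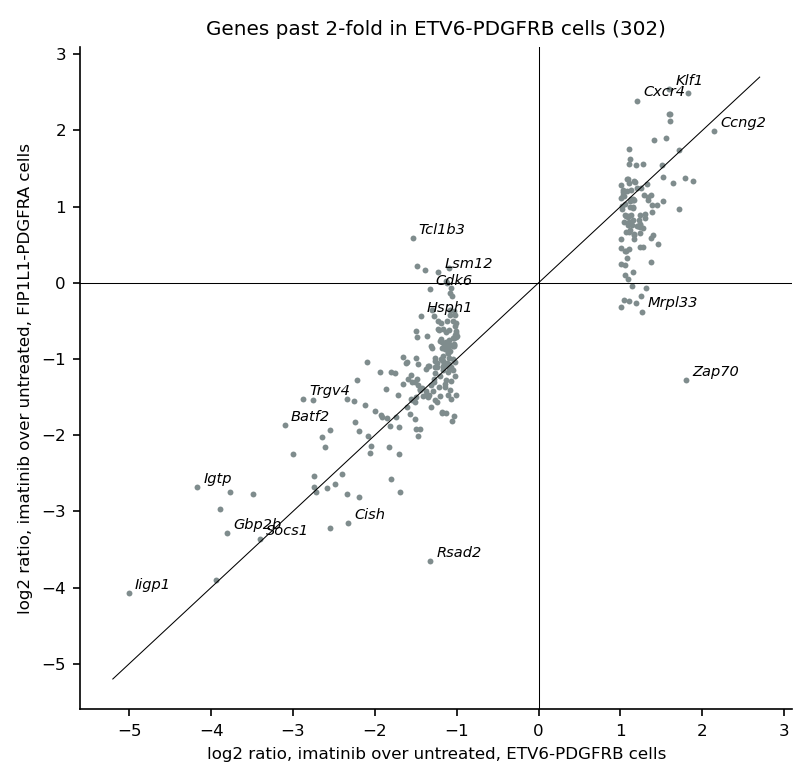
Log2 ratios of imatinib over untreated in ETV6-PDGFRB (horizontal) and FIP1L1-PDGFRA cells (vertical) for the 302 of the 306 genes past 2-fold in the first line that were measured in the second; the diagonal is equality. Most points share a sign in both lines; Tcl1b3 and Zap70 are named among those that do not.

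Differences between the fusion lines over 2-fold in ratio were few, 46 genes with a higher ratio in ETV6-PDGFRB cells (0.693% of 6640) and 48 with a lower one (0.723%), and none was tested. Some of these ratios are only bounds, and with all 4 signals above the floor the counts were 27 and 36 of 6250 genes. Igtp had the lower ratio in ETV6-PDGFRB cells, -4.17 against -2.68 on the log2 scale. The ratio was lower there for 7 of the 10 IRG and GBP genes, Gbp6 being a bound in both lines, and for 53.6% of all genes measured in both. Their untreated signals were also higher in ETV6-PDGFRB cells for all 10, such as 1476 against 617 for Iigp1. Cdk6 (54.5 and 21.7) was 33.0 and 31.1 in FIP1L1-PDGFRA cells, and Hsph1 (283 and 104) was 183 and 136. For 15 of 18 tRNA synthetases the ratio was lower in ETV6-PDGFRB cells, with a median difference of -0.29 on the log2 scale, against -0.03 over all genes. In the other direction, Ifit2 (104 and 84.2) was 216 and 49.1, Socs3 (32.6 and 29.3) was 74.9 and below the floor, and Rsad2 (50.3 and below the floor) was 252 and below it. Klf1 was 132 and 770 and Cxcr4 138 and 725 in FIP1L1-PDGFRA cells, where the untreated signals were lower and the treated ones close to those of ETV6-PDGFRB cells.

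Where a gene had more than 1 measured probe set, the others mostly ran the same way. For the lower genes 95 of 97 other probe sets had the same sign, and 58 were past 2-fold. For the higher genes 36 of 39 had the same sign and 13 were past 2-fold, with a median log2 ratio of 0.55 on the other sets against 1.19 on the chosen ones.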

How the data were processed

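Biotin-labelled RNA of the 6 Ba/F3 samples was hybridised to Affymetrix mouse arrays, from 5 µg of RNA per labelling per the labels' protocols. The authors deposited linear intensity signals, produced by MAS5 in GCOS 1.4.0 according to the submitters' processing notes. No detection calls were used, and the genome build is not given in the sources used here. With 2% trimmed from both ends, each array had a mean of 100.0, so the arrays had been scaled to that level. The number of arrays limits the precision, since there was 1 per group.

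Of 22690 probe sets, 20393 had 1 gene symbol in the platform annotation, 691 had several and 1606 none, and the 64 control sets were used for no gene. For each of 12393 genes the brightest probe set, by mean log2 signal over all 6 arrays, was used. Signals under the floor of 20.1 were set to it. Log2 ratios were computed per pair in Python 3.11.15 with numpy 2.4.6 and pandas 2.3.3, with no test and a 2-fold limit. The computation was checked on simulated data, with fold changes put only into genes whose untreated signal lay well above the floor. The check did not cover fold changes of dim genes.

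The comparison and the 44 gene lists (1360 entries, 1122 matched) were chosen with earlier results of these data known. Genes were named by rule: the 20 highest and lowest ratios, up to 4 members per list past 2-fold and 2 of the highest untreated signal, the 15 brightest past 2-fold, those differing most between fusion lines, those nearest the limit, and whole small lists. Promoter windows came from RefSeq (GRCm38.p6), and 7 motifs were searched on both strands. The 7 alternatives were other floors, a pseudocount of 16, other scalings and the median over probe sets.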

Additional observations from a re-analysis of the deposited data

Results flagged for a closer look

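With all 4 signals above the floor, the ratio differed by more than 2-fold between the fusion lines for 63 genes, and for 39 of these it ran in opposite directions. The 12 described here are those of the 39 among the named genes, which include the largest differences each way. There is 1 array per group, so the difference was not tested, and most of these genes were dim. The log2 ratio in ETV6-PDGFRB cells minus that in FIP1L1-PDGFRA cells was negative for Tcl1b3 (-2.12), Sbf2 (-1.67), Cerk (-1.64), Strada (-1.44) and Lsm12 (-1.36). Tcl1b3, a member of the TCL1 family of AKT cofactors, was 464 and 160 in ETV6-PDGFRB cells, 143 and 214 in FIP1L1-PDGFRA cells, and 170 and 140 in vector cells. Sbf2 was also past 2-fold lower in the vector pair, at 49.7 and 20.2. The difference was positive for Mrpl33 (1.64), Ccdc93 (1.48), Clec2d (1.46), Id2 (1.44), Vipas39 (1.43), Cnpy3 (1.35) and Nup54 (1.34). Mrpl33, a protein of the mitochondrial ribosome, was 117 and 279 in ETV6-PDGFRB cells, 198 and 153 in FIP1L1-PDGFRA cells, and 136 and 113 in vector cells. With the median over a gene's probe sets the ratio in ETV6-PDGFRB cells was below 0 for Id2 (-0.11) and Nup54 (-0.25), so their direction there depends on the probe set.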

How the results depend on the processing

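There were 7 alternatives, and none of the 306 genes past 2-fold changed sign under any of them, with 12 left without a value by the floor at the 60th percentile. Of the 306 genes past 2-fold, 306 kept that call with the floor at the 40th percentile, 210 at the 60th, 177 with a pseudocount of 16 in place of the floor, 295 after quantile normalization, 238 when scaled to the hybridization controls, 298 at an equal median and 271 with the median over probe sets. With the floor at the 40th percentile 168 genes were higher, the ratio differed between fusion lines for 115 and 117 genes, and the IL3 pair had 49 genes past 2-fold. The list medians were then -1.67 for antiviral genes, -0.79 for STAT5 targets, -0.85 for ERK feedback and 0.13 for myeloid markers. At the 60th percentile 65 genes were higher, 29 of them in both lines, 17 and 25 differed between the lines, and 2 passed in the IL3 pair, with medians of -1.08 for antiviral genes and -0.76 for STAT5 targets. The pseudocount gave 47 higher genes, 16 in both lines, and 18 and 19 that differed. With arrays equalized on the hybridization controls 50 genes were higher and 311 lower, 18 and 205 in both lines, and 27 with the lower ratio in ETV6-PDGFRB cells. It also turned the medians of ribosomal proteins (-0.01), lysosome (-0.06), p53 (-0.03), pro-B (-0.02), BCL2 (-0.17) and cytokine receptor genes (-0.13) below 0. The cause of these shifts was not tested beyond the settings themselves. No paired analysis was possible because there was 1 array per group, and for the same reason no array could be left out. No median was obtained for T and NK markers with the floor at the 60th percentile.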
